A study of Homo sapiens with 50 samples.

Results

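2-deoxyglucose (2-DG) together with NaHCO3, added to cultures that also received the WNT inhibitor IWP2, was compared with IWP2 alone on day 5 of cardiac differentiation. The comparison rests on 2 libraries per group and covers the 13835 genes, of 57905 in the table, that had at least 1 FPKM (fragments scaled to exon length and library size) in at least 2 of these 4 libraries. All cultures came from H1, an established human embryonic stem cell line labelled as wild type. The tested cultures carried IWP2, NaHCO3 and 2-DG, and the cultures they are set against carried IWP2 alone, so IWP2 is shared by both. Cultures with IWP2 and NaHCO3 but no 2-DG, also 2 libraries, split the comparison into 2 steps, the addition of NaHCO3 to IWP2 and the addition of 2-DG to both. None of the groups used here had 2-DG without NaHCO3. The labels give no dose, no time of addition and no pH reading, and they do not say whether the replicates were separate cultures, so p-values measure only the spread between these libraries.

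IWP2 blocks PORCN, the enzyme that attaches a lipid to WNT proteins before their secretion, and is used to steer mesoderm toward heart muscle. NaHCO3 is a base and the main buffer of culture medium. 2-DG is taken up and phosphorylated like glucose but cannot be carried on through glycolysis. It also resembles mannose, and can enter the lipid-linked sugar chains that are built for N-glycosylation in the endoplasmic reticulum (ER). Poorly glycosylated proteins fold badly there, and cells answer with the unfolded protein response, in which the factors ATF6 and XBP1 raise ER chaperones and the kinase PERK raises translation of ATF4. ATF4 is also the effector of the wider integrated stress response, whose targets import and make amino acids and charge tRNAs.

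Libraries held between 15131268 and 20202543 counts with 2-DG, between 19521886 and 21686555 with IWP2 and NaHCO3, and between 18492995 and 19034001 with IWP2. Mitochondrially encoded transcripts made up 3.35% and 3.49% of counts with 2-DG, 3.52% and 3.55% with IWP2 and NaHCO3, and 4.20% and 4.24% with IWP2. The 2-DG libraries of day 3 lay far apart from each other. They enter the comparison of days directly and the other comparisons through the shared estimate of spread. The SD of their log2 ratio over genes was 0.588, against 0.185 to 0.264 in the other 11 groups of the table. Summed FPKM of 16 pluripotency genes were 243 and 230 with 2-DG, 376 and 352 with IWP2 and NaHCO3, and 385 and 398 with IWP2. The largest part of each sum was LIN28A, an RNA-binding protein, with 146 and 135 FPKM with 2-DG, 214 and 195 with IWP2 and NaHCO3, and 204 and 211 with IWP2. NANOG, a core pluripotency factor, had 0.04 and 0.06 FPKM with 2-DG, 0.02 and 0 with IWP2 and NaHCO3, and 0.02 and 0 with IWP2. Heart muscle genes were present in every group, which fits the label of a cardiac differentiation. These are whole cultures, in which fewer cells of a type and less RNA per cell cannot be told apart.

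Against IWP2 alone, 1074 genes rose with 2-DG and NaHCO3 and 1211 fell. A gene was called at a Benjamini-Hochberg adjusted p under 0.05 (edgeR quasi-likelihood F test) with at least a 2-fold change, which is 1 on the log2 scale. The called genes were 7.76% of the reported genes higher and 8.75% lower, 16.5% in all. At least 4-fold rises numbered 338 and falls of that size 310. The median log2 fold change over all reported genes was 0.015, with quartiles of -0.42 and 0.41. FPKM of the 2 groups did not overlap in 78.5% of reported genes. Of the 13835 genes, 366 reached 1 FPKM only with 2-DG and 831 only with IWP2. Such genes had to differ to be reported at all, so where a list holds such genes its counts are also given over genes that reached 1 FPKM in both groups (in at least 1 library of each), of which 11.8% were called. Just inside the threshold were 1421 genes with exactly 2 libraries at 1 FPKM or more, and just outside it 1227 genes with 1. Without TMM scaling, using library totals alone, log2 fold changes moved by a median of -0.14 and the split became 887 higher and 1506 lower, so that 37.1% of calls were rises against 47.0% with TMM. Changes are given relative to the TMM scale. With both 2-DG libraries of day 3 left out of the fit, 1053 genes rose and 1307 fell.

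The ER stress element, a regulatory sequence known from promoters of ER chaperones, is shown first because those genes rose together. The ER stress element is CCAAT, 9 bases of any kind, then CCACG. It was searched on both strands of RefSeq promoters (GRCh38.p14), from 250 bases before to 50 after the start, with the first listed start used for each of 27305 symbols. It was found in 22 promoters (0.0806%). Among the reported genes with a promoter in the table, 10007 of 13835, it was in 14 (0.140%). Among those called higher it was in 9 of 807 (1.12%), and among those called lower in 0 of 774. Of the 22 ER chaperone and unfolded protein response genes with a promoter, 6 held it (27.3%). The 7 elements of these 6 genes follow in the direction of the element, 5′ to 3′, with 5 bases on each side and the fixed bases in capitals.
HSPA5: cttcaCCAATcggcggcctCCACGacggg
HSP90B1, upstream element: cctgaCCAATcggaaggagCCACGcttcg
HSP90B1, downstream element: acccaCCAATcgcgccgcaCCACGcaccc
XBP1: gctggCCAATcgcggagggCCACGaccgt
CRELD2: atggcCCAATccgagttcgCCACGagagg
CALR: accgaCCAATgatggtcgaCCACGcgtgg
CANX: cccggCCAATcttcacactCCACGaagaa
The stretches printed lie at chr9:125241386-125241414 (HSPA5, minus strand gene), chr12:103930211-103930239 and chr12:103930316-103930344 (HSP90B1), chr22:28800598-28800626 (XBP1, minus strand gene), chr22:49918549-49918577 (CRELD2), chr19:12938379-12938407 (CALR) and chr5:179698773-179698801 (CANX). In HSPA5 and XBP1 the element began 66 and 52 bases before the start and ran in the direction of the gene. The element of CRELD2 began 80 bases before the start on the opposite strand. In CALR it lay farthest away, from base -225 to base -207. A match is a description of the letters and shows no binding.

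HSPA5 encodes BiP, the main chaperone of the ER lumen, and its 250 bases upstream of the start (chr9:125241344-125241593, GRCh38.p14, minus strand) are shown as the best known stress promoter of this group, with the fixed bases of the element in capitals.
HSPA5 promoter: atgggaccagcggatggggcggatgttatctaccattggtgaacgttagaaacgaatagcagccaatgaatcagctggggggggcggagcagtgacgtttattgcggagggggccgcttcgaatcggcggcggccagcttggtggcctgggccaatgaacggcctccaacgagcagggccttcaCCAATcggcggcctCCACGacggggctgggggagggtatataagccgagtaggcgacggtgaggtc
Within this window a single element matched exactly.

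ER chaperone genes rose in nearly all members of their list. Of 23 genes of ER folding and the unfolded protein response, all 23 reached 1 FPKM in both groups, 21 rose and 0 fell, and the median log2 fold change was 2.09. HSPA5 (ENSG00000044574, chr9:127997132-128003609 on GRCh37) had 832 and 891 FPKM with 2-DG, 152 and 155 with IWP2 and NaHCO3, and 178 and 175 with IWP2. Both 2-DG libraries stood far above the other 4, and the log2 fold change against IWP2 was 2.43 (SE 0.1, adjusted p = 5.04e-13). HERPUD1, which helps to clear misfolded ER proteins, had 77.8 and 88.4 FPKM with 2-DG, 6.19 and 6.07 with IWP2 and NaHCO3, and 5.29 and 5.19 with IWP2 (log2 fold change 4.12, SE 0.139, adjusted p = 3.94e-14). SDF2L1, a partner of BiP, had 130 and 137 FPKM with 2-DG against 18.1 and 15.4 with IWP2 (log2 fold change 3.14, SE 0.271). HYOU1, an exchange factor for BiP, had 200 and 223 FPKM with 2-DG and 34.8 and 35.0 with IWP2 (log2 fold change 2.74, SE 0.137). XBP1, a transcription factor of the unfolded protein response, had 120 and 124 FPKM with 2-DG and 24.4 and 19.9 with IWP2 (log2 fold change 2.60, SE 0.145). In each of these the lower 2-DG library was several times the higher IWP2 library.

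Of the 14 reported genes with this element in their promoter 9 rose and the other 5 were not called. The remaining members of the ER chaperone list among them, named here for that match after their values had been seen, all rose. HSP90B1, the ER member of the HSP90 family, had 592 and 631 FPKM with 2-DG and 144 and 142 with IWP2 (log2 fold change 2.24, SE 0.124). The calcium-binding chaperone CALR had 813 and 835 FPKM with 2-DG and 337 and 311 with IWP2 (log2 fold change 1.49, SE 0.104). Its membrane-bound relative CANX had 277 and 301 FPKM with 2-DG and 81.6 and 83.7 with IWP2 (log2 fold change 1.94, SE 0.132). CRELD2 had 26.5 and 29.1 FPKM with 2-DG and 7.59 and 5.51 with IWP2 (log2 fold change 2.22, SE 0.193), and it overlaps ALG12 on the opposite strand. Against IWP2 and NaHCO3, the addition of 2-DG raised 22 of the 23 genes, with a median of 2.25. Addition of NaHCO3 to IWP2 changed 0 of the 23 by the edgeR call (3 had an unadjusted p under 0.05), with a median of -0.09, where it changed 4.64% of all reported genes.

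**Figure D1:**
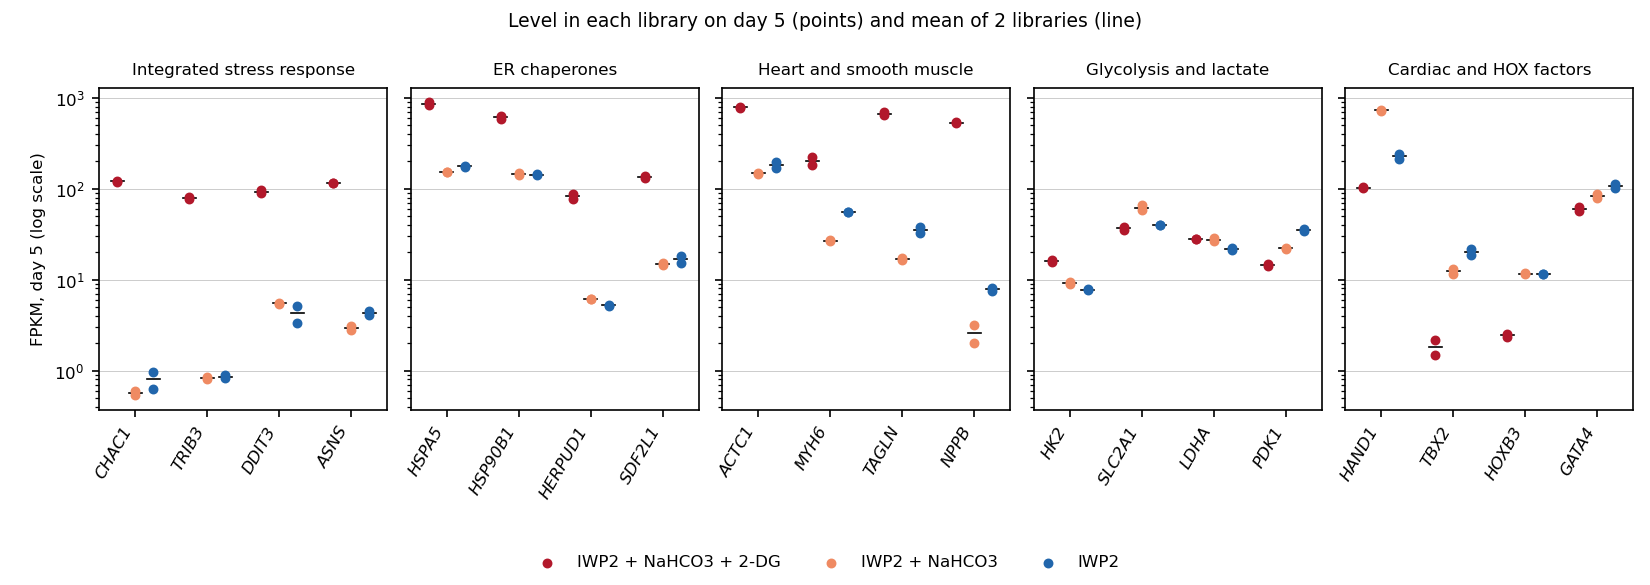
FPKM on day 5 (log axis) of 20 genes in 5 groups, with a point for each library and a line at the mean of 2 libraries, for IWP2 with NaHCO3 and 2-DG, IWP2 with NaHCO3, and IWP2. Stress genes stand far higher in the 2-DG libraries, such as CHAC1 at 122 and 119 FPKM against 0.97 and 0.63 with IWP2, while LDHA lies between 21.4 and 28.6 FPKM in all 6.

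Integrated stress response genes rose in most members of their list. Of 22 genes, 21 were reported, 17 rose and 0 fell. Among the 16 that reached 1 FPKM in both groups, 12 rose and 0 fell, with a median log2 fold change of 1.81. Over all 21 the median was 4.05, but 5 of them passed only with 2-DG, where they are high, and so had to differ. These 5 are CHAC1, TRIB3, ADM2, NUPR1 and GDF15, which are described below with DDIT3 and ATF4. CHAC1 (ENSG00000128965, chr15:41245160-41248710 on GRCh37), which degrades glutathione, had 122 and 119 FPKM with 2-DG, 0.54 and 0.60 with IWP2 and NaHCO3, and 0.97 and 0.63 with IWP2. The other 4 libraries all held less than 1 FPKM, and the log2 fold change was 7.36 (SE 0.299, adjusted p = 4.08e-13). TRIB3, a pseudokinase that restrains ATF4 and AKT signalling, had 76.3 and 81.2 FPKM with 2-DG, 0.81 and 0.85 with IWP2 and NaHCO3, and 0.89 and 0.83 with IWP2 (log2 fold change 6.65, SE 0.228). DDIT3, which encodes CHOP, a factor of stress-induced cell death, had 90.6 and 95.7 FPKM with 2-DG, 5.36 and 5.57 with IWP2 and NaHCO3, and 5.17 and 3.35 with IWP2 (log2 fold change 4.58, SE 0.317). DDIT3 overlaps MARS on the opposite strand, and the strand setting of the counting is not given in the sources used here. ADM2, a secreted peptide of the calcitonin family, had 20.5 and 21.4 FPKM with 2-DG, 0.52 and 0.28 with IWP2 and NaHCO3, and 0.07 and 0.09 with IWP2 (log2 fold change 8.12, SE 0.305). NUPR1, a small stress-induced chromatin protein, had 144 counts over the 2-DG libraries and 0 over those with IWP2, so that it was at least 25.8-fold higher, with 3 counts taken as the floor of each library. With NUPR1 set to that bound the median over the 21 was again 4.05. GDF15, a circulating stress hormone, had 8.70 and 9.72 FPKM with 2-DG and 0.18 and 0.41 with IWP2 (log2 fold change 5.09, SE 0.336). ATF4 itself, named for its role after its value was seen, had 443 and 417 FPKM with 2-DG, 139 and 139 with IWP2 and NaHCO3, and 115 and 118 with IWP2 (log2 fold change 2.02, SE 0.147). On adding 2-DG to IWP2 and NaHCO3 18 of the 21 rose. On adding NaHCO3 to IWP2 the calls went both ways, 2 higher (ADM2 and ATF3) and 2 lower.

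Genes that import amino acids, make them and attach them to tRNAs were higher too. Of 13 amino acid transporters 10 rose and 0 fell, and 8 of the 11 that reached 1 FPKM in both groups rose, with a median log2 fold change of 2.14 over these 11 and of 2.76 over all 13. SLC7A11, the cystine importer, had 8.94 and 12.5 FPKM with 2-DG, 0.16 and 0.14 with IWP2 and NaHCO3, and 0.09 and 0.13 with IWP2 (log2 fold change 6.76, SE 0.313). It overlaps SLC7A11-AS1 on the opposite strand. SLC1A4, a transporter of neutral amino acids, had 24.7 and 27.7 FPKM with 2-DG against 0.77 and 0.71 with IWP2 (log2 fold change 5.28, SE 0.231). SLC3A2, the common heavy chain of several transporters, had 212 and 229 FPKM with 2-DG against 31.6 and 25.8 with IWP2 (log2 fold change 3.08, SE 0.164). SLC7A11 and SLC1A4 passed the filter only with 2-DG, so that their groups had to lie apart. Groups did not overlap in SLC3A2 either, as in 78.5% of all reported genes.

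Of 13 enzymes of serine, asparagine and folate-dependent carbon metabolism 9 rose and 0 fell (median 2.46), 8 of them among the 12 that reached 1 FPKM in both groups. ASNS, which makes asparagine, had 115 and 115 FPKM with 2-DG, 3.07 and 2.81 with IWP2 and NaHCO3, and 4.09 and 4.53 with IWP2 (log2 fold change 4.87, SE 0.146, adjusted p = 9.1e-15). PSAT1, the transaminase of serine synthesis, had 316 and 311 FPKM with 2-DG, 17.7 and 16.1 with IWP2 and NaHCO3, and 16.4 and 16.04 with IWP2 (log2 fold change 4.41, SE 0.105). MTHFD2, a mitochondrial folate enzyme, had 107 and 116 FPKM with 2-DG against 6.61 and 6.07 with IWP2 (log2 fold change 4.27, SE 0.109). PHGDH, the first enzyme of serine synthesis, changed less, with 185 and 180 FPKM with 2-DG, 104 and 107 with IWP2 and NaHCO3, and 78.9 and 72.0 with IWP2 (log2 fold change 1.41, SE 0.130). Of 18 cytosolic aminoacyl-tRNA synthetases 9 rose and 0 fell (median 1.06), all 18 having reached 1 FPKM in both groups. WARS, for tryptophan, had 94.1 and 103 FPKM with 2-DG and 10.4 and 9.85 with IWP2 (log2 fold change 3.42, SE 0.0980). GARS, for glycine, had 111 and 118 FPKM with 2-DG and 19.2 and 18.3 with IWP2 (log2 fold change 2.74, SE 0.0950).

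The element that ATF4 and CHOP dimers can recognise, here TGATG, 1 base of any kind, then AA, is shorter and far more common. It was in 3.67% of the 27305 promoters, in 1.54% of those of reported genes, in 28 of 807 called higher (3.47%) and in 12 of 774 called lower (1.55%). Among the lists it was in 6 of 14 promoters of tRNA synthetases (42.9%), in 4 of 11 of amino acid transporters (36.4%), in 2 of 9 of serine, asparagine and folate enzymes (22.2%) and in 2 of 17 of integrated stress response genes (11.8%). Of the 6 synthetase genes holding it 5 had risen, and the other, AARS, was not called (log2 fold change 0.79, SE 0.101). Of the 4 transporter genes holding it 2 had risen and 2 were not called. Among genes of the other lists with the element, HERPUD1 and PLK3 rose, GDF3 fell and the rest were not called. The matches of 5 genes are printed with 10 bases on each side, in the direction of the element and with its fixed bases in capitals.
CHAC1: ctggcaggagTGATGcAAcggcagggga
ATF3: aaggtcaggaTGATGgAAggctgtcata
HERPUD1: gggcacgggcTGATGcAAcccgccgcgt
ASNS: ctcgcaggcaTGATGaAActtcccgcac
MTHFD1L: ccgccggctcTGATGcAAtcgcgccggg
They lie at chr15:40953252-40953279 (CHAC1), chr1:212565206-212565233 (ATF3), chr16:56931956-56931983 (HERPUD1), chr7:97872459-97872486 (ASNS, minus strand gene) and chr6:150866347-150866374 (MTHFD1L), all on GRCh38.p14. All 5 genes rose. ATF3, a stress-induced factor of the same family, had 38.4 and 39.9 FPKM with 2-DG, 8.02 and 8.74 with IWP2 and NaHCO3, and 1.85 and 1.99 with IWP2, and was among the 2 of the list that also rose when NaHCO3 was added to IWP2 (log2 fold change 2.09). MTHFD1L, another mitochondrial folate enzyme, had 27.3 and 25.5 FPKM with 2-DG and 5.17 and 5.42 with IWP2 (log2 fold change 2.46, SE 0.114). ATF3 and MTHFD1L are named for this match.

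**Figure D2:**
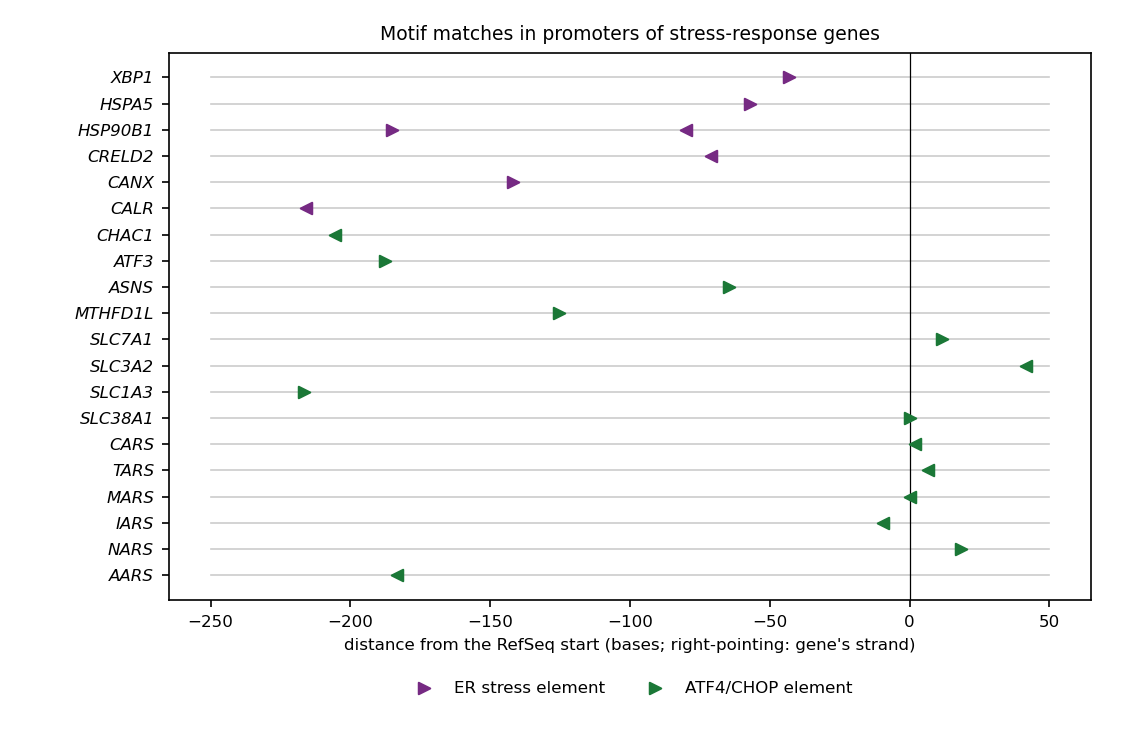
Position of each match, in bases from the RefSeq start at 0, in 20 promoters of stress-response genes, with triangles that point right for the strand of the gene and left for the other strand. Elements for ER stress lie upstream of the start, between -225 and -34, and the ATF4/CHOP elements of the tRNA synthetase genes cluster near the start apart from that of AARS.

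Of 24 genes of the hexosamine and N-glycosylation pathways, all of which reached 1 FPKM in both groups, 10 rose and 0 fell, with a median of 0.82. STT3A, a catalytic subunit of the oligosaccharyltransferase, had 57.3 and 60.7 FPKM with 2-DG, 22.9 and 23.7 with IWP2 and NaHCO3, and 18.7 and 20.4 with IWP2 (log2 fold change 1.73, SE 0.0930). RPN1, another subunit of that complex, had 156 and 158 FPKM with 2-DG and 61.6 and 55.4 with IWP2 (log2 fold change 1.56, SE 0.101). GFPT1, the entry enzyme of hexosamine synthesis, had 29.9 and 38.03 FPKM with 2-DG and 11.1 and 11.7 with IWP2 (log2 fold change 1.71, SE 0.135). GMPPB, which makes GDP-mannose, had 3.43 and 3.31 FPKM with 2-DG and 1.15 and 1.03 with IWP2 (log2 fold change 1.77, SE 0.190). The 2 groups lay apart in each of these 4 genes, as in 78.5% of all reported genes.

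In further lists of stress, autophagy and lipid synthesis genes every called gene rose, in shares that differed between lists. Of 13 NRF2 and oxidative stress genes 7 rose and 0 fell, 5 of them among 11 that reached 1 FPKM in both groups. NQO1, a quinone reductase, had 7.73 and 7.49 FPKM with 2-DG, 3.23 and 3.07 with IWP2 and NaHCO3, and 1.37 and 1.70 with IWP2 (log2 fold change 2.45, SE 0.165). Of 14 heat shock genes 2 rose (14.3%), close to the 11.8% called among all genes that reached 1 FPKM in both groups. They were HSPB8 and HSPB1, both small heat shock proteins. HSPB8 had 39.7 and 38.8 FPKM with 2-DG, 1.44 and 1.47 with IWP2 and NaHCO3, and 1.51 and 1.91 with IWP2 (log2 fold change 4.66, SE 0.180). The 12 others of that list were not called, among them HSPA1A, the inducible HSP70, with 11.0 and 8.58 FPKM with 2-DG and 12.5 and 10.4 with IWP2 (log2 fold change -0.08, SE 0.18). Of 13 autophagy and lysosome genes 5 rose and 0 fell, led by SQSTM1, an autophagy receptor, with 25.4 and 26.3 FPKM with 2-DG and 9.54 and 9.24 with IWP2 (log2 fold change 1.60, SE 0.103). Of 19 genes of cholesterol and fatty acid synthesis 10 rose and 0 fell, among them CYP51A1, a demethylase of sterol synthesis, with 5.53 and 6.33 FPKM with 2-DG, 2.40 and 2.73 with IWP2 and NaHCO3, and 2.05 and 1.84 with IWP2 (log2 fold change 1.74, SE 0.168).

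Genes of growth arrest and death were higher in part. Of 17 p53 targets 6 rose and 0 fell, 4 of them among 15 that reached 1 FPKM in both groups. PMAIP1, which encodes the death-promoting protein NOXA, had 27.3 and 27.8 FPKM with 2-DG, 1.63 and 1.49 with IWP2 and NaHCO3, and 1.60 and 1.67 with IWP2 (log2 fold change 4.21, SE 0.174). CDKN1A, the cell-cycle inhibitor p21, had 3.22 and 3.28 FPKM with 2-DG and 0.28 and 0.76 with IWP2 (log2 fold change 2.78, SE 0.308). CDKN2B, another inhibitor of cyclin-dependent kinases, had 6.43 and 7.33 FPKM with 2-DG and 0.41 and 0.32 with IWP2 (log2 fold change 4.36, SE 0.364), and it overlaps CDKN2B-AS1 on the opposite strand. Both CDKN1A and CDKN2B passed the filter only with 2-DG. MDM2, the best known p53 target, was not called, with 3.89 and 4.87 FPKM with 2-DG and 4.62 and 5.13 with IWP2 (log2 fold change -0.02, SE 0.135). Of 20 G2/M genes 2 fell and 0 rose (10%), close to the 11.8% called among all genes that reached 1 FPKM in both groups. MKI67, a proliferation marker, had 4.90 and 4.56 FPKM with 2-DG, 17.2 and 18.6 with IWP2 and NaHCO3, and 10.6 and 13.2 with IWP2 (log2 fold change -1.19, SE 0.282, adjusted p = 0.00208). CENPE, a kinetochore motor, had 1.38 and 1.34 FPKM with 2-DG and 3.12 and 3.43 with IWP2 (log2 fold change -1.13, SE 0.197). Of 22 replication and S phase genes 0 were called in either direction by edgeR or DESeq2, although 6 had an unadjusted p under 0.05 in edgeR, with a median of 0.003.

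Glycolysis, the pathway that 2-DG blocks, had calls in both directions. Of 21 glucose transporters and glycolytic enzymes 3 rose and 1 fell, and 3 rose and 1 fell (20%) among the 20 that reached 1 FPKM in both groups, beside 11.8% of all such genes. An adjusted p under 0.05 with any fold was found for 17 of the 21, against 6308 of the 13835 reported genes. HK2, a hexokinase, had 15.6 and 16.5 FPKM with 2-DG, 9.52 and 9.06 with IWP2 and NaHCO3, and 7.60 and 7.82 with IWP2 (log2 fold change 1.20, SE 0.136, adjusted p = 7.9e-07). PFKP, the platelet-type phosphofructokinase, had 191 and 199 FPKM with 2-DG, 62.4 and 66.8 with IWP2 and NaHCO3, and 92.1 and 96.1 with IWP2 (log2 fold change 1.19, SE 0.12). ENO1, an enolase, had 379 and 375 FPKM with 2-DG and 209 and 196 with IWP2 (log2 fold change 1.04, SE 0.128), and it was below the 2-fold limit when library totals alone were used (0.90) or without replicate 2 of IWP2 (0.99). ALDOC, an aldolase, had 2.20 and 1.65 FPKM with 2-DG and 6.60 and 5.84 with IWP2 (log2 fold change -1.54, SE 0.205). SLC2A1, the basal glucose transporter GLUT1, had 35.5 and 37.9 FPKM with 2-DG, 57.8 and 66.0 with IWP2 and NaHCO3, and 40.2 and 40.4 with IWP2 (log2 fold change 0.0011, SE 0.104). SLC2A3, the transporter GLUT3, had 110 and 110 FPKM with 2-DG against 167 and 177 with IWP2, a log2 difference of -0.51 (adjusted p = 0.000235) that did not reach 2-fold.

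Lists of lactate, TCA cycle and nuclear respiratory genes each held 1 called gene, at 9.09%, 4.76% and 3.85% of their reported members. All these members reached 1 FPKM in both groups, and 11.8% of all such genes were called, so that the lactate share was close to it. LDHA, the main lactate dehydrogenase of muscle, had 28.1 and 28.0 FPKM with 2-DG, 28.6 and 26.3 with IWP2 and NaHCO3, and 22.4 and 21.4 with IWP2 (log2 fold change 0.50, SE 0.121, adjusted p = 0.00277). Of 11 genes of lactate and pyruvate fate 1 was called, PDK1, a kinase that shuts pyruvate out of mitochondria. It had 14.9 and 14.3 FPKM with 2-DG, 22.3 and 21.9 with IWP2 and NaHCO3, and 34.5 and 35.9 with IWP2 (log2 fold change -1.13, SE 0.140). Of 21 TCA cycle enzymes 1 rose, the cytosolic isocitrate dehydrogenase IDH1, with 59.8 and 59.98 FPKM with 2-DG and 26.03 and 24.9 with IWP2 (log2 fold change 1.37, SE 0.1). Among 26 nuclear genes of the respiratory chain 1 rose, CYCS, which encodes cytochrome c, with 35.03 and 35.5 FPKM with 2-DG and 17.8 and 17.8 with IWP2 (log2 fold change 1.12, SE 0.126), and the call did not hold with library totals alone (0.98). None of the 12 pentose phosphate and nucleotide sugar genes, the 13 mitochondrially encoded genes and the 20 cytosolic ribosomal proteins were called by edgeR or DESeq2, and 6, 3 and 2 of them had an unadjusted p under 0.05 in edgeR.

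TXNIP and ARRDC4, which encode arrestin-like proteins that answer to sugar phosphates through the factor MondoA, had different values over the whole comparison. TXNIP had 57.5 and 54.4 FPKM with 2-DG, 25.8 and 24.1 with IWP2 and NaHCO3, and 55.9 and 62.4 with IWP2 (log2 fold change 0.06, SE 0.106, adjusted p = 0.700). Its NaHCO3 libraries lay below all others, with a log2 fold change of -1.28 on adding NaHCO3 and of 1.34 on adding 2-DG. ARRDC4 had 11.1 and 10.8 FPKM with 2-DG, 1.43 and 1.55 with IWP2 and NaHCO3, and 4.84 and 5.04 with IWP2. It rose over the whole comparison (log2 fold change 1.28, SE 0.186) and by 3.04 on adding 2-DG. The 2-DG step shares libraries with the whole comparison, as does the NaHCO3 step, so their values are given side by side and are not separate evidence.

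**Figure D3:**
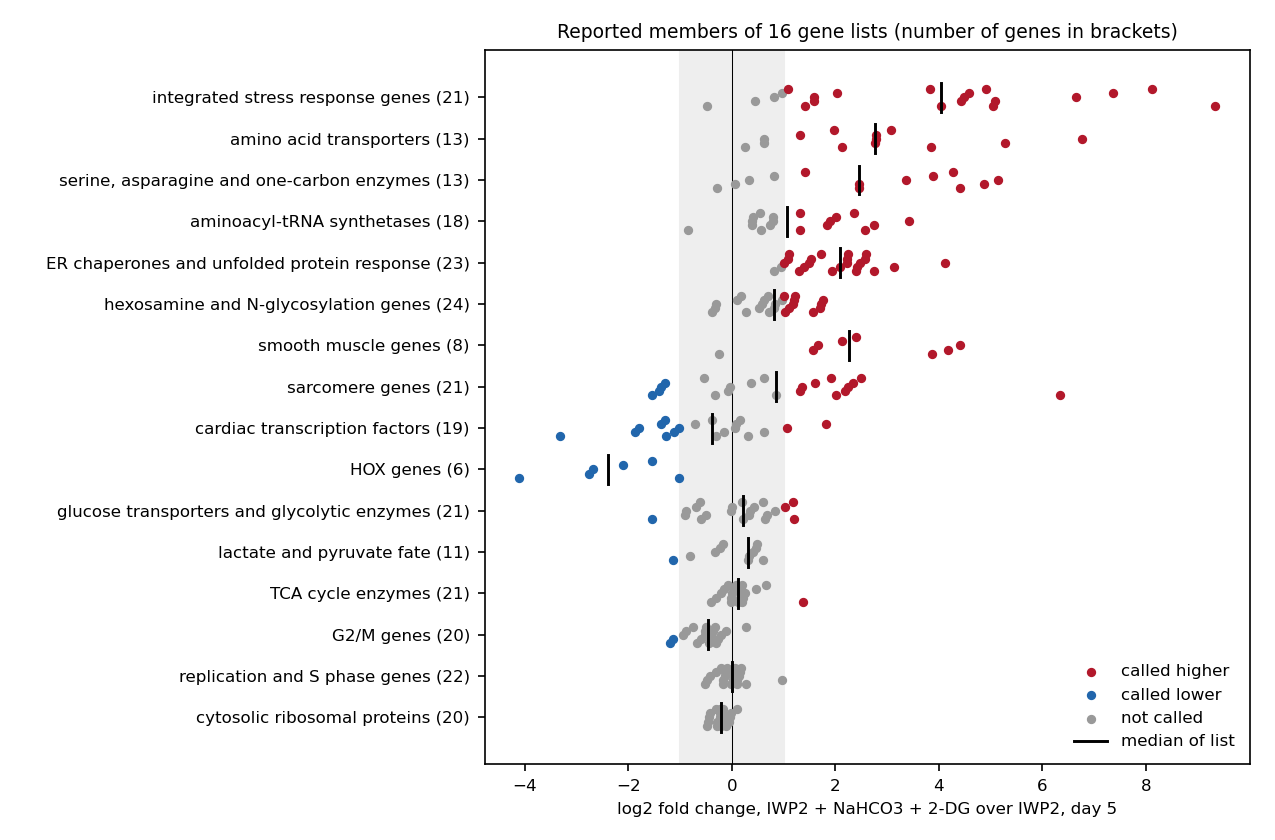
Log2 fold change on day 5 of IWP2 with NaHCO3 and 2-DG over IWP2, a point for each reported gene of 16 lists, red for called higher, blue for called lower and grey for not called, with a black line at the median of the list and shading over changes of less than 2-fold. Integrated stress response and ER chaperone genes lie to the right, with medians of 1.81 and 2.09 over genes that reached 1 FPKM in both groups (the line drawn for the first, over all 21 reported genes, is at 4.05), and replication genes lie around 0 (0.003). The point farthest right is NUPR1, whose fitted value is no bound because IWP2 libraries held 0 counts.

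Contractile genes split. Of 21 reported sarcomere genes, of 27 in the list, 10 rose and 4 fell, and 8 rose and 4 fell among the 19 that reached 1 FPKM in both groups. ACTC1, cardiac actin, had 792 and 777 FPKM with 2-DG, 149 and 146 with IWP2 and NaHCO3, and 196 and 170 with IWP2 (log2 fold change 2.24, SE 0.209, adjusted p = 5.94e-08). MYH6, the atrial myosin heavy chain, had 223 and 184 FPKM with 2-DG, 26.5 and 27.2 with IWP2 and NaHCO3, and 55.4 and 56.0 with IWP2 (log2 fold change 2.01, SE 0.230). CSRP3, a muscle LIM protein that passed the filter only with 2-DG, had 34.6 and 32.7 FPKM with 2-DG, 0.09 and 0.28 with IWP2 and NaHCO3, and 0.54 and 0.37 with IWP2 (log2 fold change 6.33, SE 0.35). TNNT2, cardiac troponin T, was not called, at 66.6 and 65.6 FPKM with 2-DG, 32.4 and 32.3 with IWP2 and NaHCO3, and 60.8 and 51.8 with IWP2 (log2 fold change 0.37, SE 0.121). MYL7, the atrial myosin light chain, fell, with 256 and 245 FPKM with 2-DG, 365 and 388 with IWP2 and NaHCO3, and 747 and 597 with IWP2 (log2 fold change -1.28, SE 0.253, adjusted p = 0.000407). The other sarcomere genes that fell, named after their values were seen, were TNNI1, ACTN2 and MYL3. TNNI1, the slow troponin I, had 62.5 and 49.9 FPKM with 2-DG against 196 and 162 with IWP2 (log2 fold change -1.53, SE 0.22). ACTN2, a protein of the Z-disc, had 8.91 and 7.68 FPKM with 2-DG against 23.5 and 24.6 with IWP2 (log2 fold change -1.40, SE 0.235). Of the 21, the addition of NaHCO3 to IWP2 lowered 7 and raised 0, where it lowered 2.39% of all reported genes, and the addition of 2-DG to IWP2 and NaHCO3 raised 14 and lowered 0, where it raised 7.76%.

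The list of cardiac calcium handling, channel and hormone genes had 5 that rose and 3 that fell among 15 reported of 22. Among the 11 that reached 1 FPKM in both groups 4 rose and 0 fell. NPPB, the natriuretic peptide BNP, had 536 and 530 FPKM with 2-DG, 1.99 and 3.17 with IWP2 and NaHCO3, and 7.42 and 8.18 with IWP2 (log2 fold change 6.23, SE 0.228, adjusted p = 1.03e-13). NPPA, the atrial peptide ANP, stayed far lower, with 4.95 and 3.78 FPKM with 2-DG, 0.21 and 0 with IWP2 and NaHCO3, and 0.38 and 0 with IWP2 (log2 fold change 4.63, SE 0.58), and it passed the filter only with 2-DG. The 3 genes that fell, MB, KCNJ3 and CACNA1D, all passed only with IWP2. Large rises were also found in ACTA1 and ANKRD1, which are outside the muscle lists. ACTA1, skeletal actin, had 237 and 233 FPKM with 2-DG, 0.56 and 0.72 with IWP2 and NaHCO3, and 1.69 and 2.39 with IWP2 (log2 fold change 6.99, SE 0.321). ANKRD1, a stretch-responsive ankyrin repeat protein and a target of YAP, had 687 and 731 FPKM with 2-DG, 4.05 and 3.80 with IWP2 and NaHCO3, and 15.0 and 15.2 with IWP2 (log2 fold change 5.70, SE 0.184). In NPPB, ACTA1 and ANKRD1 adding NaHCO3 to IWP2 lowered the level and adding 2-DG raised it. CTGF, a matricellular protein and target of YAP, had 162 and 178 FPKM with 2-DG, 11.6 and 12.7 with IWP2 and NaHCO3, and 26.9 and 25.3 with IWP2 (log2 fold change 2.84, SE 0.153). CYR61, of the same family, had 164 and 185 FPKM with 2-DG and 29.4 and 24.7 with IWP2 (log2 fold change 2.83, SE 0.152). In all 4 of 12 YAP and TEAD targets rose and 0 fell, all 4 among the 11 that reached 1 FPKM in both groups.

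Smooth muscle genes rose as a group, with 7 of the 8 reported of 10 higher and 0 lower, and 6 of the 7 that reached 1 FPKM in both groups. TAGLN, an actin-binding protein of smooth muscle, had 691 and 649 FPKM with 2-DG, 16.4 and 17.1 with IWP2 and NaHCO3, and 37.5 and 32.4 with IWP2 (log2 fold change 4.40, SE 0.190, adjusted p = 9.13e-13). CNN1, calponin, had 149 and 146 FPKM with 2-DG and 12.0 and 10.3 with IWP2 (log2 fold change 3.86, SE 0.191). ACTA2, smooth muscle actin, had 128 and 135 FPKM with 2-DG, 47.4 and 47.1 with IWP2 and NaHCO3, and 34.8 and 30.9 with IWP2 (log2 fold change 2.14, SE 0.186). ACTA2 is named after its value was seen. Summed over the 10 genes, FPKM were 1284 and 1238 with 2-DG, 173 and 178 with IWP2 and NaHCO3, and 200 and 177 with IWP2. The factor MYOCD, which drives smooth and heart muscle genes together with SRF, had 33.1 and 34.6 FPKM with 2-DG, 3.25 and 2.91 with IWP2 and NaHCO3, and 9.18 and 11.9 with IWP2 (log2 fold change 1.82, SE 0.216).

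Markers of other cell types were measured beside these muscle genes. Summed FPKM of 18 fibroblast and matrix genes were 1625 and 1710 with 2-DG, 3031 and 3162 with IWP2 and NaHCO3, and 1916 and 1899 with IWP2. Of the 15 reported, 2 rose and 2 fell. The sum over 18 endothelial markers was 20.3 and 19.5 FPKM with 2-DG, 48.6 and 52.6 with IWP2 and NaHCO3, and 14.8 and 14.9 with IWP2. Over 10 epicardial markers it was 417 and 389 FPKM with 2-DG, 673 and 675 with IWP2 and NaHCO3, and 640 and 569 with IWP2, with 0 of 4 reported genes called by edgeR or DESeq2 (3 had an unadjusted p under 0.05). Skeletal muscle regulators (MYOD1, MYOG and MYF5) were listed at 0 FPKM in all 6 libraries. Their list of 15 somite and skeletal muscle markers had 2 reported genes, which both fell and both passed the filter only with IWP2. The sum over that list was 1.43 and 1.47 FPKM with 2-DG, 5.88 and 5.01 with IWP2 and NaHCO3, and 13.8 and 11.05 with IWP2. The part of other cell types in the muscle result was not tested.

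Cardiac transcription factors fell more often than they rose over the whole comparison. Of 19 reported of 20, 8 fell and 2 rose (MYOCD and SRF), and 6 fell and 2 rose among the 17 that reached 1 FPKM in both groups. Addition of NaHCO3 to IWP2 raised 2 of the 19 and lowered 6, where it raised 2.25% and lowered 2.39% of all reported genes. Addition of 2-DG to IWP2 and NaHCO3 raised 7 and lowered 7, where it raised 7.76% and lowered 7.62%. TBX2, a repressor of the chamber programme, had 2.18 and 1.47 FPKM with 2-DG, 11.6 and 13.1 with IWP2 and NaHCO3, and 21.7 and 18.8 with IWP2 (log2 fold change -3.32, SE 0.263). GATA5 had 12.5 and 10.4 FPKM with 2-DG and 49.5 and 42.2 with IWP2 (log2 fold change -1.86, SE 0.168). HAND2, a factor of the right ventricle, had 37.3 and 31.8 FPKM with 2-DG, 70.0 and 73.5 with IWP2 and NaHCO3, and 97.2 and 88.5 with IWP2 (log2 fold change -1.29, SE 0.192), and overlaps HAND2-AS1. TBX5, a factor of the first heart field, had 0.90 and 0.79 FPKM with 2-DG, 3.61 and 4.36 with IWP2 and NaHCO3, and 1.87 and 2.16 with IWP2 (log2 fold change -1.11, SE 0.267). TBX5 passed the filter only with IWP2, and its call was lost in limma on log2(FPKM + 1) (-0.71). HAND1, of the left ventricle, had 104 and 102 FPKM with 2-DG, 712 and 741 with IWP2 and NaHCO3, and 244 and 214 with IWP2 (log2 fold change -1.02, SE 0.148). Its call was lost without replicate 1 of IWP2 (-0.94). The central factors GATA4, NKX2-5 and ISL1 were not called. GATA4 had 62.6 and 57.4 FPKM with 2-DG and 113 and 102 with IWP2 (log2 fold change -0.71, adjusted p = 9.38e-06). NKX2-5 had 8.56 and 6.50 FPKM with 2-DG, 2.91 and 1.66 with IWP2 and NaHCO3, and 9.61 and 6.15 with IWP2 (log2 fold change 0.08, SE 0.311). ISL1, of the second heart field, had 55.1 and 55.5 FPKM with 2-DG, 15.7 and 14.7 with IWP2 and NaHCO3, and 43.2 and 43.7 with IWP2 (log2 fold change 0.49, adjusted p = 0.00182).

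HOX genes of the B cluster, which mark position along the body axis, were lower. Only 6 of the 24 HOX genes listed were reported, and 2 of these reached 1 FPKM with IWP2 only, so the number that fell says little by itself. HOXB3 had 2.32 and 2.54 FPKM with 2-DG, 11.5 and 11.8 with IWP2 and NaHCO3, and 11.4 and 11.4 with IWP2 (log2 fold change -2.10, SE 0.197, adjusted p = 6.26e-08). HOXB4 had 1.59 and 1.34 FPKM with 2-DG, 10.2 and 10.8 with IWP2 and NaHCO3, and 11.2 and 9.48 with IWP2 (log2 fold change -2.67, SE 0.244). Both were not called on adding NaHCO3 and lay lower in both 2-DG libraries. HOXB6, which passed the filter only with IWP2, had 0.79 and 0.71 FPKM with 2-DG, 44.0 and 44.9 with IWP2 and NaHCO3, and 6.49 and 4.71 with IWP2 (log2 fold change -2.75, SE 0.226). These genes overlap each other and antisense transcripts, so their levels are uncertain.

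Liver and foregut markers, which NaHCO3 raised, did not stay high with 2-DG. Of 12 reported of 22, the addition of NaHCO3 to IWP2 raised 10 and lowered 0, where it raised 2.25% of all reported genes. Adding 2-DG to IWP2 and NaHCO3 lowered 10 and raised 0, where it lowered 7.62%. Over the whole comparison 3 fell, or 1 of the 10 that reached 1 FPKM in both groups. APOA1, an apolipoprotein of liver and gut, had 25.3 and 18.3 FPKM with 2-DG, 159 and 155 with IWP2 and NaHCO3, and 29.3 and 25.3 with IWP2 (log2 fold change -0.18, SE 0.179, adjusted p = 0.464). HNF4A, a factor of the liver, had 2.15 and 1.62 FPKM with 2-DG, 16.1 and 16.2 with IWP2 and NaHCO3, and 2.79 and 3.23 with IWP2 (log2 fold change -0.53, SE 0.141). TTR, a carrier of thyroid hormone, fell below both, with 0.79 and 0.93 FPKM with 2-DG, 21.8 and 20.2 with IWP2 and NaHCO3, and 3.25 and 3.79 with IWP2 (log2 fold change -1.90, SE 0.237). In the whole comparison TTR passed the filter only with IWP2. AFP did not reach the threshold, with 0.33 and 0.37 FPKM with 2-DG, 2.49 and 3.66 with IWP2 and NaHCO3, and 0.11 and 0.03 with IWP2. The sum over the 22 markers was 52.1 and 41.5 FPKM with 2-DG, 329 and 325 with IWP2 and NaHCO3, and 67.7 and 65.6 with IWP2.

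Several other genes had the same order, highest with IWP2 and NaHCO3. COL3A1, a fibrillar collagen, had 269 and 313 FPKM with 2-DG, 1068 and 1133 with IWP2 and NaHCO3, and 385 and 329 with IWP2 (log2 fold change -0.16, SE 0.336). LUM, a matrix proteoglycan, had 8.36 and 12.6 FPKM with 2-DG, 273 and 268 with IWP2 and NaHCO3, and 50.8 and 42.9 with IWP2 (log2 fold change -2.03, SE 0.276). IGF2, a fetal growth factor, had 165 and 177 FPKM with 2-DG, 475 and 496 with IWP2 and NaHCO3, and 252 and 251 with IWP2 (log2 fold change -0.42, SE 0.190). EPCAM, an epithelial adhesion protein, had 17.1 and 15.9 FPKM with 2-DG, 33.1 and 30.1 with IWP2 and NaHCO3, and 11.9 and 11.9 with IWP2 (log2 fold change 0.61, SE 0.175). Of these, LUM was called over the whole comparison and the other 3 were not.

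**Figure D4:**
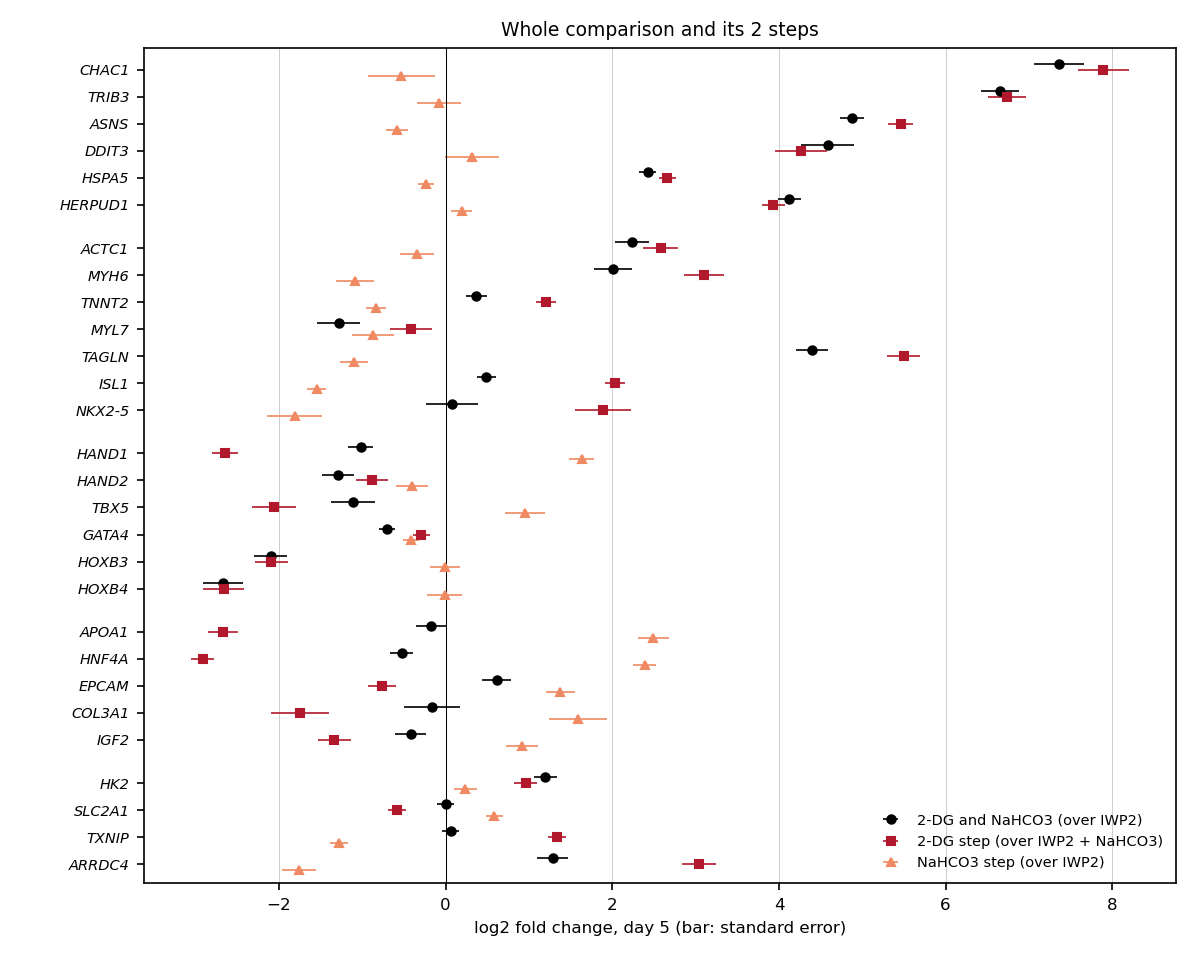
Log2 fold change on day 5 with its standard error for 28 genes: the whole comparison (2-DG and NaHCO3 over IWP2), the 2-DG step over IWP2 and NaHCO3, and the NaHCO3 step over IWP2. CHAC1 has 7.36 over the whole comparison and 7.89 in the 2-DG step, whereas the steps of APOA1 and HNF4A point in opposite directions and their whole comparison is at -0.18 and -0.53. The 3 values of a gene share libraries.

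Further marker lists of other cell types and of regional identity held single genes that moved far. PRRX1, a factor of limb and craniofacial mesenchyme, had 0.52 and 0.64 FPKM with 2-DG, 19.4 and 18.5 with IWP2 and NaHCO3, and 7.08 and 7.26 with IWP2 (log2 fold change -3.50), and passed the filter only with IWP2. Of the 10 reported genes of its mesenchymal list 2 rose and 2 fell, or 2 and 1 of the 9 that reached 1 FPKM in both groups. PDGFRA, a receptor of cardiac mesoderm, had 18.0 and 15.6 FPKM with 2-DG, 44.5 and 42.1 with IWP2 and NaHCO3, and 52.1 and 63.8 with IWP2 (log2 fold change -1.64), and 3 of 8 reported cardiac mesoderm genes fell and 0 rose, all 3 among the 7 that reached 1 FPKM in both groups. NES, an intermediate filament of neural and muscle progenitors, had 235 and 227 FPKM with 2-DG, 71.01 and 70.1 with IWP2 and NaHCO3, and 91.5 and 90.4 with IWP2 (log2 fold change 1.48). The sum over neural markers, mostly NES, was 249 and 240 FPKM with 2-DG and 136 and 133 with IWP2. Of the 4 reported neural markers NES alone rose and 2 fell, LHX2 and OTX2. Among the 3 that reached 1 FPKM in both groups, 1 rose and 1 fell. Summed FPKM of trophoblast markers, mostly the heart factor HAND1, were 198 and 192 with 2-DG, 884 and 916 with IWP2 and NaHCO3, and 374 and 334 with IWP2. The list also holds the heart factor ISL1, and its members CGA, CGB and ELF5 were listed at 0 with 2-DG and with IWP2. SLC9A3R1, a scaffold of membrane transporters that belongs to the list of proton and bicarbonate handling, had 50.9 and 55.4 FPKM with 2-DG, 399 and 415 with IWP2 and NaHCO3, and 264 and 232 with IWP2 (log2 fold change -2.09). Of the 14 reported genes of that list 3 fell and 0 rose. SFRP5, a secreted WNT inhibitor, had 2.59 and 1.84 FPKM with 2-DG, 22.5 and 21.1 with IWP2 and NaHCO3, and 27.8 and 29.3 with IWP2 (log2 fold change -3.53). CACNA1D, a calcium channel of pacemaker cells, had 0.79 and 0.60 FPKM with 2-DG, 4.58 and 4.91 with IWP2 and NaHCO3, and 4.96 and 6.19 with IWP2 (log2 fold change -2.86), and so passed the filter only with IWP2.

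Signalling genes changed in both directions. MYC, the growth factor-responsive oncogene, had 16.1 and 19.2 FPKM with 2-DG, 1.85 and 1.86 with IWP2 and NaHCO3, and 0.63 and 0.94 with IWP2 (log2 fold change 4.62, SE 0.192), and passed the filter only with 2-DG. Among 15 FGF ligands and ERK feedback genes 6 rose and 2 fell, or 4 and 2 of the 13 that reached 1 FPKM in both groups. FGF18, which passed only with 2-DG, had 4.41 and 4.26 FPKM with 2-DG and 0.42 and 0.52 with IWP2 (log2 fold change 3.34, SE 0.414). Among 18 BMP and ID genes 3 rose and 5 fell, or 2 and 4 of the 16 that reached 1 FPKM in both groups. BMP2 had 106 and 106 FPKM with 2-DG, 12.0 and 10.8 with IWP2 and NaHCO3, and 15.7 and 13.5 with IWP2 (log2 fold change 3.00, SE 0.136), whereas BMP5 had 27.9 and 25.7 FPKM with 2-DG, 63.0 and 64.5 with IWP2 and NaHCO3, and 153 and 157 with IWP2 (log2 fold change -2.39, SE 0.195). JAG1, a NOTCH ligand, had 125 and 114 FPKM with 2-DG, 12.7 and 11.5 with IWP2 and NaHCO3, and 37.7 and 42.0 with IWP2 (log2 fold change 1.72, SE 0.187). Of 11 direct WNT targets 2 rose and 2 fell, or 1 and 2 of the 10 that reached 1 FPKM in both groups, and AXIN2, the feedback inhibitor, had 2.67 and 2.67 FPKM with 2-DG and 4.02 and 4.30 with IWP2 (log2 fold change -0.50, adjusted p = 0.00133), which was not called. EGLN3, a prolyl hydroxylase and target of hypoxia-inducible factor, had 5.90 and 7.09 FPKM with 2-DG, 0.62 and 0.37 with IWP2 and NaHCO3, and 0.54 and 0.46 with IWP2 (log2 fold change 3.84, SE 0.232), and passed the filter only with 2-DG. In its list of 15 hypoxia-inducible genes 4 rose and 1 fell, or 3 and 1 of the 14 that reached 1 FPKM in both groups.

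Most residual markers of earlier stages were not called, and those called were lower. Of 12 reported pluripotency factors, all of which reached 1 FPKM in both groups, 3 fell and 0 rose (25%, beside 11.8% of all such genes). They were led by L1TD1, an RNA-binding protein of stem cells, with 3.97 and 3.9 FPKM with 2-DG, 11.9 and 11.1 with IWP2 and NaHCO3, and 51.3 and 53.9 with IWP2 (log2 fold change -3.60, SE 0.141). POU5F1 (OCT4) had 5.30 and 2.57 FPKM with 2-DG, 4.09 and 2.80 with IWP2 and NaHCO3, and 6.87 and 7.11 with IWP2 (log2 fold change -0.67, adjusted p = 0.0341). It passed the call without replicate 1 of 2-DG (-1.31), the library with the higher value. Of 11 primitive streak and mesendoderm genes 4 fell and 0 rose, or 2 and 0 of the 9 that reached 1 FPKM in both groups (22.2%, beside the same 11.8%). NODAL, a ligand of the streak, had 2.05 and 1.41 FPKM with 2-DG, 12.2 and 14.3 with IWP2 and NaHCO3, and 27.8 and 20.7 with IWP2 (log2 fold change -3.65, SE 0.255). EOMES was not called, with 1.74 and 1.82 FPKM with 2-DG and 1.68 and 2.04 with IWP2. MESP1 was low in all, with 0.54 and 0.92 FPKM with 2-DG and 1.35 and 1.26 with IWP2 (log2 fold change -0.73, adjusted p = 0.0854), and was called without replicate 2 of 2-DG (-1.12).

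Over the whole transcriptome the largest rises, among genes whose higher group averaged 5 FPKM or more, included several of the stress genes named above. FAM129A, a stress-induced regulator of translation, had 11.6 and 14.4 FPKM with 2-DG, 0.10 and 0.08 with IWP2 and NaHCO3, and 0.06 and 0.02 with IWP2 (log2 fold change 8.51). INHBE, a hormone of the activin family, had 48.0 and 48.6 FPKM with 2-DG, 0.38 and 0.24 with IWP2 and NaHCO3, and 0.21 and 0.14 with IWP2 (log2 fold change 8.21). The transcript CTA-384D8.31 had 246 counts over the 2-DG libraries and 0 over those with IWP2, so that it was at least 44.2-fold higher on the same floor. KLHDC7B had 738 counts against 3, a ratio of 261 with a 95% counting interval from 89.0 to 1270. The remaining 6 of the 10 largest rises were ADM2, CHAC1, ACTA1, G0S2, SLC7A11 and TRIB3. G0S2, an inhibitor of fat breakdown, had 27.7 and 27.2 FPKM with 2-DG and 0.36 and 0.12 with IWP2 (log2 fold change 6.89), and overlaps a transcript on the opposite strand.

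The largest falls included developmental regulators. ATOH1, a factor of the nervous system and gut, had 0.17 and 0.17 FPKM with 2-DG, 6.80 and 7.86 with IWP2 and NaHCO3, and 32.3 and 32.5 with IWP2 (log2 fold change -7.41). C7, a complement component, had 0.39 and 0.27 FPKM with 2-DG, 22.3 and 24.9 with IWP2 and NaHCO3, and 28.8 and 24.3 with IWP2 (log2 fold change -6.17). C7 lay below 1 FPKM in the 2-DG libraries alone, while ATOH1 took a middle level with NaHCO3. BRINP2 had 0.88 and 0.64 FPKM with 2-DG, 2.86 and 2.09 with IWP2 and NaHCO3, and 23.8 and 22.8 with IWP2 (log2 fold change -4.79). The homeobox gene UNCX had 0.34 and 0.23 FPKM with 2-DG and 10.2 and 7.39 with IWP2 (log2 fold change -4.78). TBX4, a factor of hindlimb and lung, had 0.30 and 0.17 FPKM with 2-DG and 6.52 and 6.14 with IWP2 (log2 fold change -4.58). MAB21L2 had 5.99 and 6.83 FPKM with 2-DG, 121 and 122 with IWP2 and NaHCO3, and 114 and 103 with IWP2 (log2 fold change -3.94), and lies within LRBA on the opposite strand. SHISA3 had 0.23 and 0.37 FPKM with 2-DG, 25.1 and 23.8 with IWP2 and NaHCO3, and 7.73 and 5.54 with IWP2 (log2 fold change -4.37). The others were PSKH2, RP11-655M14.13 and MIR4740, the last with 0 counts in the 2-DG libraries and 13 in those with IWP2. That is at least 1.99-fold lower in the 2-DG libraries against the floor, and the call was lost without replicate 1 of either group.

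The same treatment was compared with IWP2 on day 3, and the difference between the days was tested in 1 model. The value of day 5 minus that of day 3 was larger on day 5 for 839 reported genes (6.06%) and smaller for 1006 (7.27%), 13.3% in all. Without replicate 2 of the 2-DG libraries of day 3, which lay apart from replicate 1, the first count became 1456. Of 34 reported panel genes 18 were called, 8 larger and 10 smaller on day 5, and 16 of the 18 were called the same way with either 2-DG library of day 3 left out. TRIB3 had 4.05 and 2.91 FPKM with 2-DG and 0.95 and 1.12 with IWP2 on day 3, and its log2 fold change was 1.91 on that day against 6.65 on day 5 (difference 4.75, adjusted p = 2.79e-09). ASNS was already at 68.7 and 58.0 FPKM with 2-DG and 6.81 and 7.05 with IWP2 on day 3, a log2 fold change of 3.35, with a difference of 1.53. HSPA5 had 601 and 599 FPKM with 2-DG and 165 and 176 with IWP2 on day 3, and its difference of 0.46 between the days (adjusted p = 0.0170) did not reach the 2-fold limit. MYL7 was higher with 2-DG on day 3, at 12.9 and 6.91 FPKM against 4.02 and 2.23 with IWP2, and lower on day 5 (difference -3.11, adjusted p = 1.14e-05). IGF2 had 40.3 and 35.2 FPKM with 2-DG and 4.14 and 3.55 with IWP2 on day 3, a log2 fold change of 3.45 against -0.42 on day 5 (difference -3.87). HAND1 had 479 and 367 FPKM with 2-DG and 313 and 290 with IWP2 on day 3 (difference -1.67). With IWP2 and NaHCO3 on day 3, MYL7 had 9.74 and 5.05 FPKM, IGF2 42.4 and 26.3, and HAND1 457 and 451, near the 2-DG libraries. In that group TRIB3 had 0.74 and 0.78 FPKM, ASNS 6.17 and 5.9, and HSPA5 202 and 210, below the 2-DG libraries. The shares of NaHCO3 and 2-DG in the day 3 values were not tested.

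Levels on days 7 and 11 come from a separately made table and were not tested against day 5. CHAC1 had 21.1 and 13.2 FPKM with 2-DG on day 3, 122 and 119 on day 5, 5.73 and 5.96 on day 7, and 0.27 and 0.42 on day 11, when IWP2 libraries held 0.37 and 0.44. HSPA5 had 363 and 381 FPKM with 2-DG on day 7, against 177 and 187 with IWP2, and 117 and 161 on day 11 against 160 and 158. Both genes thus lay above the IWP2 level in the 2-DG libraries of day 7 and overlapped it on day 11. MYH6 had 1079 and 1048 FPKM with 2-DG on day 7, 74.6 and 84.0 with IWP2 and NaHCO3, and 1635 and 1468 with IWP2. On day 11 it had 910 and 889 FPKM with 2-DG, 13.5 and 12.3 with IWP2 and NaHCO3, and 685 and 773 with IWP2. TNNT2 had 312 and 316 FPKM with 2-DG on day 11, 35.7 and 33.4 with IWP2 and NaHCO3, and 235 and 241 with IWP2. The 2-DG libraries thus held MYH6 on both days, and TNNT2 on day 11, at levels nearer to IWP2 than to IWP2 and NaHCO3. ACTA1 was at 73.0 and 55.3 FPKM with 2-DG on day 11, against 0.52 and 0.55 with IWP2 and NaHCO3 and 10.5 and 9.69 with IWP2. AFP had 99.3 and 99.9 FPKM with 2-DG on day 11, against 3109 and 2934 with IWP2 and NaHCO3 and 92.3 and 78.8 with IWP2. SLC2A1 had 32.5 and 17.7 FPKM with 2-DG on day 11, against 215 and 226 with IWP2 and NaHCO3 and 23.9 and 20.9 with IWP2. C7, nearly silent with 2-DG on day 5, had 22.3 and 20.3 FPKM with 2-DG on day 11 and 18.1 and 18.9 with IWP2.

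**Figure D5:**
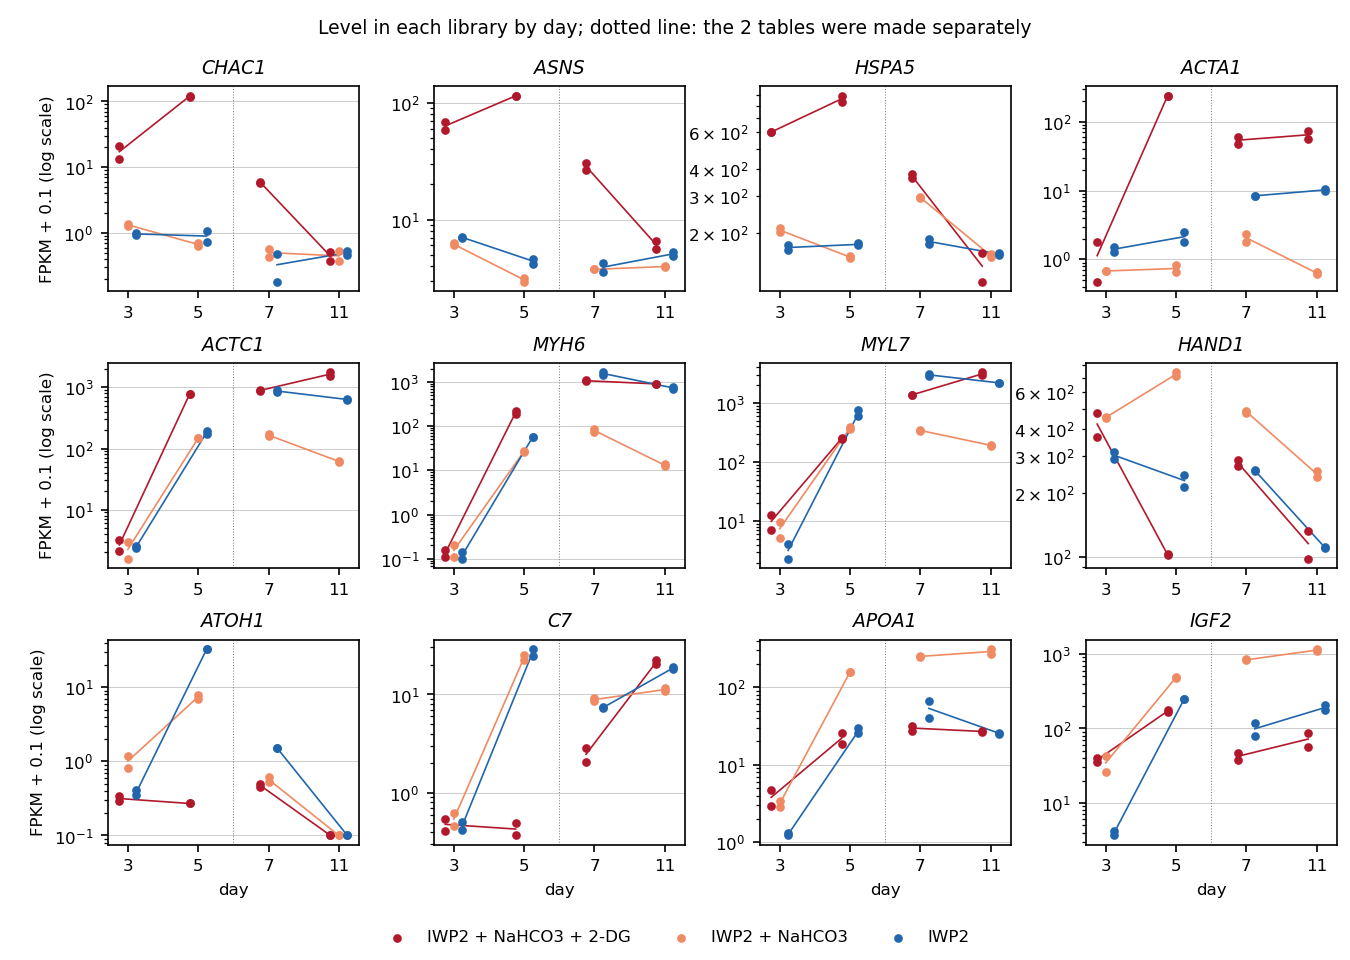
FPKM plus 0.1 (log axis) of 12 genes on days 3, 5, 7 and 11 in each library of IWP2 with NaHCO3 and 2-DG, IWP2 with NaHCO3, and IWP2, with lines through the means and a dotted line between the 2 separately made tables. CHAC1 peaks on day 5 at 122 and 119 FPKM with 2-DG, MYH6 on days 7 and 11 lies near the IWP2 level with 2-DG, and APOA1 and IGF2 are highest with IWP2 and NaHCO3 on days 5, 7 and 11.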

How the data were processed

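Per the labels' protocols, RNAiso Plus was used for extraction, and the VAHTS Universal V8 kit turned 1 µg of total RNA into each library. The submitters' processing notes name cutadapt 1.9.1, HISAT2 2.0.1, HTSeq 0.6.1 and GRCh37, but not which step each served. The deposited table of days 3 and 5 gives raw counts per gene for 24 libraries (12 groups of 2), FPKM that the authors computed, and the deposited exonic gene size in bases. Levels printed are the deposited FPKM, and days 7 and 11 come from a second deposited table. Strand of counting and aligner settings are not given in the sources used here.

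Genes with at least 1 FPKM in 2 of 24 libraries (17286 genes, 99.57% of counts) were fitted in edgeR 4.0.16 (R 4.3.3) with TMM scaling and a robust quasi-likelihood fit in which each of the 12 groups had its own mean, so that groups of 2 share an estimate of spread (biological coefficient of variation 0.119). Contrasts were tested with F tests and Benjamini-Hochberg adjustment over the 17286 genes, and calls required an adjusted p under 0.05 with at least a 2-fold change. Each standard error is the size of the fold change (log2) over the root of its F value. The scripts were tested on simulated counts.

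Members, the 53 gene lists, the panel of 36 genes and the tests were chosen with earlier results of these data known. Named genes are the panel, the 10 largest called rises and falls with at least 5 FPKM and groups that do not overlap, up to 4 called genes per list described, and uncalled members of a list where needed. AARS, HSPA1A, MDM2, HSP90B1, CRELD2, CANX, CALR, ATF3, ATF4, MTHFD1L, ACTA2, TNNI1, ACTN2 and MYL3 were named after their values were seen. Alternatives were RLE scaling, library totals, other filters, other sets of libraries, DESeq2 1.42.0, limma 3.58.1, other fold limits, a replicate block and leaving out each library. Promoters are from the RefSeq table, matched by symbol or older symbol. Of its symbols 5191 have several starts, of which the first was used. Counting intervals and floors cover counting error only.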

Additional observations from a re-analysis of the deposited data

Results flagged for a closer look

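The effect of 2-DG with NaHCO3 over IWP2 alone was tested for a difference between days 3 and 5, and it differed for many genes: 839 had a larger log2 fold change on day 5 and 1006 a smaller one (edgeR, interaction contrast). Among the panel, the stress and growth-arrest genes TRIB3 (4.75), GDF15 (4.14), CDKN1A (2.98), DDIT3 (2.64) and ASNS (1.53) had larger values on day 5, as did ACTC1 (1.97), EOMES (1.96) and HK2 (1.49). EOMES was lower with 2-DG on day 3, at 22.2 and 35.1 FPKM with 2-DG against 109 and 121 with IWP2. With IWP2 and NaHCO3 it had 58.5 and 77.4 FPKM on that day. Smaller values on day 5 were found for IGF2 (-3.87), MYL7 (-3.11), TBX5 (-2.69), COL3A1 (-2.50), HAND2 (-2.15), APOA1 (-2), NKX2-5 (-1.77), SP5 (-1.68), HAND1 (-1.67) and ARRDC4 (-1.24). Some of these differences rest on low day 3 levels. On day 3 TBX5 had 0.22 and 0.27 FPKM with 2-DG and 0.11 and 0.07 with IWP2. In the same order COL3A1 had 0.59 and 0.35 against 0.01 and 0.2, and NKX2-5 1.35 and 0.8 against 0.4 and 0.26. Among the larger values, GDF15 had 0.79 and 0.78 against 0.6 and 0.29.

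The 2-DG libraries of day 3 lay far apart, so these differences were also computed without each of them. COL3A1 (-1.996, adjusted p = 0.215) and NKX2-5 (-1.28, adjusted p = 0.105) were no longer called without replicate 1, and the other 16 were called the same way in both cases. MKI67, not called with both libraries (-0.91), was called without replicate 1 (-1.52) and was at 0.09 without replicate 2. On day 3 it had 8.57 and 28.9 FPKM in the 2-DG libraries, against 23.0 and 26.0 with IWP2. MESP1 was called without replicate 1 (1.37) and PHGDH without replicate 2 (-1.09).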

How the results depend on the processing

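No called value reversed its direction. Among differences between the days that were not called, MKI67 (-0.91) was at 0.09 and ISL1 (0.12) at -0.04 without replicate 2 of the 2-DG libraries of day 3, and POU5F1 (-0.16) at 0.19 without replicate 1. Over the whole comparison, rises numbered 679 and falls 465 with a filter of 5 FPKM, so that rises outnumbered falls, 598 and 519 with glmTreat against a 2-fold change, and 3295 and 3013 with no fold limit, limma on log2(FPKM + 1) gave 625 rises, and no filter on FPKM gave 2074 falls. For NaHCO3 added to IWP2 the same filter gave 93 higher and 173 lower, glmTreat 122 and 96, and no fold limit 894 and 946, with 808 higher without a filter and 165 lower with limma on log2(FPKM + 1). For 2-DG added to IWP2 and NaHCO3 the filter gave 699 higher and 403 lower, glmTreat 622 and 516, and no fold limit 3279 and 2742, with 642 higher with limma on log2(FPKM + 1) and 2194 lower without a filter. For the difference between the days the filter gave 486 larger and 528 smaller, glmTreat 351 and 381, and no fold limit 1764 and 1864, with 621 smaller when only the libraries compared were fitted and 650 with limma on log2(FPKM + 1). Leaving out 1 library at a time gave 1031 to 1095 rises and 1102 to 1306 falls in the whole comparison, 285 to 320 and 273 to 375 for NaHCO3, 1024 to 1094 and 985 to 1111 for 2-DG, and 774 to 1456 and 879 to 1290 for the days. DESeq2 called 2280 genes, 2234 of them shared with the 2285 of edgeR, and no shared gene had the opposite sign. Correlations of same-numbered deviations were 0.086, 0.025 and 0.063, which with 2 libraries per group cannot settle whether replicate numbers pair the samples. A fit with a replicate block called 2285 genes, 2270 of them shared with the main fit. Over the alternatives, 3856 values of named genes kept their direction and side of the threshold, 105 lost the call, 12 gained it and 27 uncalled values moved. The causes of these shifts, beyond fewer genes or libraries, were not tested. Genes at a few counts, such as KLHDC7B, are limited by depth.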
